A study of Mus musculus with 12 samples.

Results

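Mice that lack the transcription factor Gfi1 and mice that carry a variant form of human GFI1 were compared, each against its own control, in granulocyte-monocyte precursors (GMPs) sorted from bone marrow. The loss effect is the difference between Gfi1 knock-out (KO) and wild-type (WT) GMPs, and the variant effect is the difference between GMPs with the knocked-in human GFI1 variant, which the labels call SNP, and GMPs with knocked-in wild-type human GFI1 (wtKI). The quantity described here is the variant effect minus the loss effect, the interaction of the 2 comparisons, together with the genes whose effects oppose or agree. All 12 of the 12 arrays of the series enter it, 3 per genotype, and the values are also given on 10 arrays, without SNP replicate 1 and KO replicate 1. The question is whether the variant acts on a gene as the absence of Gfi1 does: a gene for which it does has an interaction near 0, and a gene on which the 2 genotypes act in opposite directions has a large one. All mice were of the C57BL/6 strain and were kept under specific-pathogen-free conditions, and the labels give no age. The knock-in groups are both labelled as carrying human GFI1, so that wtKI is the control for the human gene in place of the mouse gene, while WT carries mouse Gfi1. RNA was isolated with a micro-scale kit, amplified with a NuGEN kit and hybridised to an Affymetrix Mouse Gene 1.0 ST array for each sample. Nothing in the labels states that replicates are separate mice, and the p-values therefore measure only sample-to-sample spread, which may be in part technical.

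GFI1 is a zinc-finger repressor that binds DNA through an AATC core and silences genes by bringing the demethylase LSD1, its partner CoREST and histone deacetylases to them through its N-terminal SNAG domain. In GMPs it favours the granulocyte fate over the monocyte fate, and without it neutrophils do not complete their maturation. Which target genes the variant regulates differently is the aim that the series states.

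Primary granule genes such as Mpo and Prtn3 mark early granulocyte precursors, and the mean level of the 9 measured was 9.04 to 9.70 on the log2 scale over the 12 arrays, with 1 of them under the 5th percentile of the array on KO 2 and on KO 3. That percentile was 4.40 on KO 1, 4.39 on SNP 1 and 5.30 to 5.65 on the other 10 arrays. Values under it are taken here as near background, and a difference that involves a group under it on every array has no exact size. Because it was lower on KO 1 and SNP 1, KO and SNP were called near background less easily on 12 arrays than on 10. Sizes can also be inexact where only some arrays of a group are under it. KO 1 and SNP 1 stood apart. Their median correlation with the other arrays was 0.701 and 0.633, against 0.836 to 0.886 for the other 10. The typical log2 scatter among probe sets of the same gene was 0.481 on KO 1 and 0.483 on SNP 1, against 0.218 to 0.304 on the other 10. What set these arrays apart was not tested. The mean level of 18 late neutrophil genes was 10.41 on SNP 1 and 6.05 to 7.43 on the others, that of 15 erythroid genes was 9.43 on SNP 1, 7.56 on KO 1 and 6.03 to 6.72 elsewhere, and that of 13 B-lineage genes was 8.71, 6.35 and 5.36 to 6.12. In a sorted sample measured in bulk, fewer cells of a type and less RNA per cell cannot be told apart. The mean level of 3 Y-linked genes (Eif2s3y, Kdm5d and Uty) was 2.94 on WT 3, 2.95 on wtKI 2 and 3.18 on wtKI 3, and 7.49 to 8.38 on the other 9 arrays. All KO and all SNP arrays were thus Y-positive, while 1 of 3 WT and 2 of 3 wtKI arrays were not, so the arrays within WT and within wtKI do not all come from the same animals. The Gfi1 probe sets do not check the knock-out label: the gene was at 5.59, 5.78 and 6.29 in WT, 6.43, 6.74 and 6.58 in KO, 6.28, 5.93 and 6.27 in wtKI, and 6.65, 6.54 and 6.61 in SNP. Its interaction was -0.25 ± 0.30 (standard error, as for all errors below; 3 arrays per group), adjusted p = 0.997 in the limma fit. The labels do not say which part of Gfi1 is deleted.

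Across 14201 genes the 2 effects, which share no array, had the same sign more often than not on 12 arrays, and this was not so on 10. On 12 arrays 8433 genes (59.4%) had effects of the same sign and 5768 (40.6%) of opposite sign, and the correlation of the 2 effects across genes was 0.217 (Pearson) and 0.241 (Spearman). On 10 arrays 7157 genes (50.4%) agreed in sign and 7044 (49.6%) did not, and the correlations were 0.0213 and 0.0086. Genes are not independent replicates, and these are descriptions with no test. Without KO 1 alone the Pearson correlation was -0.0117, and without SNP 1 alone it was 0.123. Erythroid and B-lineage levels were high on both of these arrays and late neutrophil levels on SNP 1, and the part of those levels in the correlation was not tested. The typical size of both effects was alike, with a standard deviation over genes of 0.43 for the loss effect and 0.50 for the variant effect on 12 arrays, and 0.39 and 0.40 on 10.

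The same shift was seen among genes whose groups did not overlap in either comparison. On 12 arrays 169 genes (1.19%) differed without overlap in the same direction, 73 of them upwards and 96 downwards, and 75 genes (0.528%) in opposite directions, 46 higher in KO and lower in SNP and 29 the other way. On 10 arrays, where groups of 2 arrays overlap less easily, 383 genes (2.7%) agreed and 364 (2.56%) opposed. With both effects also at least 1 in size on the log2 scale, 18 genes (0.127%) agreed and 8 (0.0563%) opposed on 12 arrays, and 10 genes (0.0704%) agreed and 14 (0.0986%) opposed on 10. Of the opposing genes, 6 met the rule on both sets of arrays, which is 75.0% of the 8 and 42.9% of the 14: Clnk, Maged1, Rplp0, Sod3, Vamp5 and Zdhhc2. Of the agreeing genes, 4 did, 22.2% of the 18 and 40.0% of the 10: Plag1, Prox2, Sycp1 and Ubd. At the edge of the size rule on 12 arrays lay Slc35a2, with a smaller effect of 1.01, just inside and Ikzf2, with 0.98, just outside among the opposing genes.

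**Figure D1:**
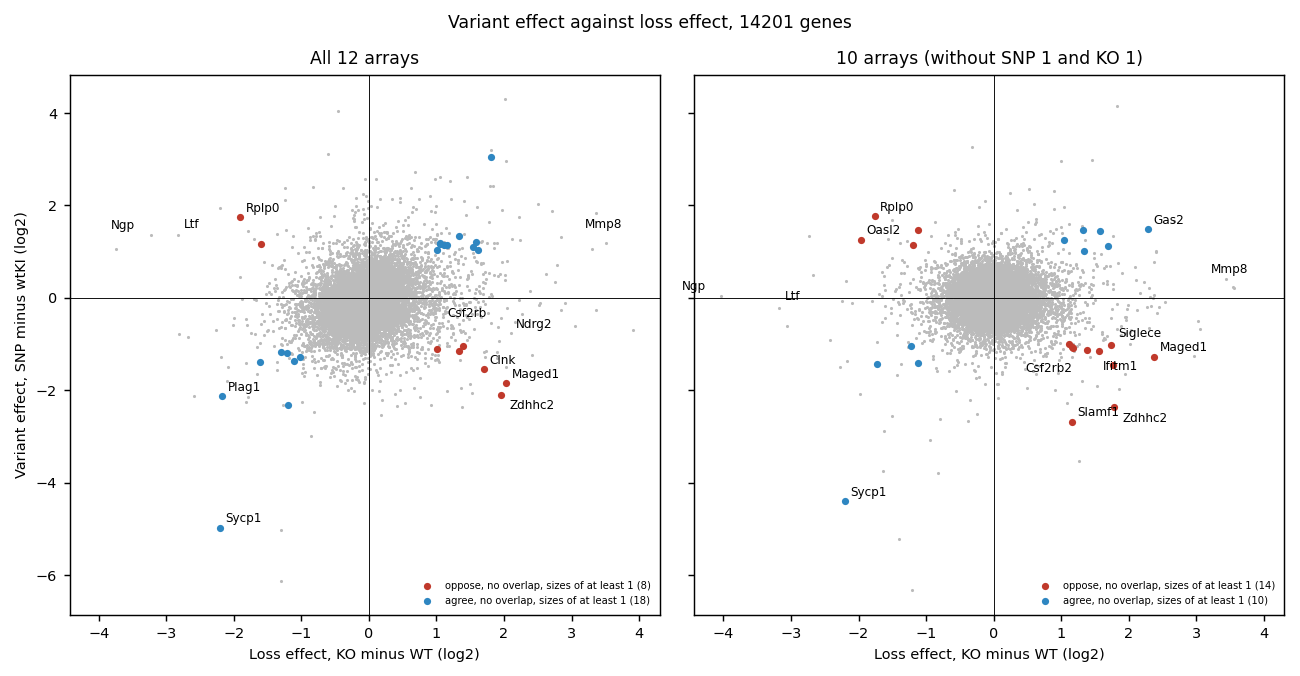
Loss effect (horizontal axis, KO minus WT, log2) against variant effect (vertical axis, SNP minus wtKI, log2) for 14201 genes, on 12 arrays (left) and on 10 arrays (right). Red points are genes whose effects oppose and blue points genes whose effects agree, without overlap in either comparison and with both sizes at least 1; the cloud leans to the same sign on the left (correlation 0.217) and not on the right (0.0213).

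Tested gene by gene, few interactions were resolved. On 12 arrays limma placed 1 gene higher in the variant effect than in the loss effect (0.00704% of 14201), Rplp0, and 1 lower (0.00704%), Zdhhc2, at an adjusted p under 0.05. At an unadjusted p under 0.05 there were 261 genes higher (1.84%) and 395 lower (2.78%). On 10 arrays 1 gene was higher (0.00704%), again Rplp0, and 2 were lower (0.0141%), Zdhhc2 and Ifitm1, with 440 genes (3.1%) and 571 genes (4.02%) at an unadjusted p under 0.05. Of the genes at an unadjusted p under 0.05, 424 were shared by both sets of arrays, which is 64.6% of those on 12 arrays and 41.9% of those on 10.

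Rplp0, which encodes a protein of the ribosomal stalk and is often used as a reference gene, crossed over between the genotypes. It was at 10.38, 10.28 and 10.41 in WT and at 10.10, 10.22 and 10.10 in SNP, but at 8.15, 8.63 and 8.56 in KO and at 8.38, 8.62 and 8.17 in wtKI. The WT and SNP arrays were all above the KO and wtKI arrays. The loss effect was -1.91 ± 0.20 (limma adjusted p = 0.00949), the variant effect 1.75 ± 0.20 (adjusted p = 0.0232) and the interaction 3.66 ± 0.28 (adjusted p = 0.000376). On 10 arrays the interaction was 3.53 ± 0.26 (adjusted p = 0.00131). Rplp0 fell in KO and rose in SNP, each against its control, and was the one gene to pass in both comparisons on 12 arrays. The interaction passed without any 1 array, with an adjusted p of 0.000774 to 0.0036. The loss call was lost without any 1 WT array (adjusted p of 0.106, 0.076 and 0.115 without WT 1, WT 2 and WT 3). The variant call was lost without WT 2, KO 2, KO 3 or any 1 wtKI or SNP array, with an adjusted p of 0.0548 to 0.212. With the Y-linked level as a covariate the interaction was 3.67 (adjusted p = 0.00247), while the loss and variant calls were lost (adjusted p = 0.0572 and 0.344). They were also lost with only the groups compared in the fit (0.154 and 0.317).

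The 5 probe sets of Rplp0 did not move together. Probe set 10524719 was at 10.38, 10.28 and 10.41 in WT and 10.10, 10.22 and 10.10 in SNP, where it is the median of the gene, and at 5.33, 5.66 and 5.28 in KO and 5.45, 5.35 and 5.50 in wtKI, where other probe sets are. Its loss effect was -4.94, its variant effect 4.70 and its interaction 9.64 (limma adjusted p = 3.59e-07 over all probe sets). The probe set was near background on KO 3, wtKI 1 and wtKI 2, so these sizes are not exact. It was the one probe set whose interaction passed when each was tested by itself. Probe set 10524720 went the same way, from 10.86, 10.89 and 11.14 in WT to 8.36, 9.20 and 9.26 in KO, and from 9.31, 8.82 and 8.17 in wtKI to 10.70, 11.01 and 10.82 in SNP, with an interaction of 4.10 ± 0.48 (adjusted p = 0.13). The brightest, 10524721, was flat, at 11.73 to 11.86 on all 12 arrays. With the brightest probe set standing for the gene, the interaction of Rplp0 was -0.0029, with the mean of the probe sets it was 2.99 (adjusted p = 0.081), and with median polish 1.59 (adjusted p = 0.987). The size and the call of the gene thus depend on how its probe sets are joined. Rplp0 has processed copies elsewhere in the genome, and which copies the probe sets measure was not tested.

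**Figure D2:**
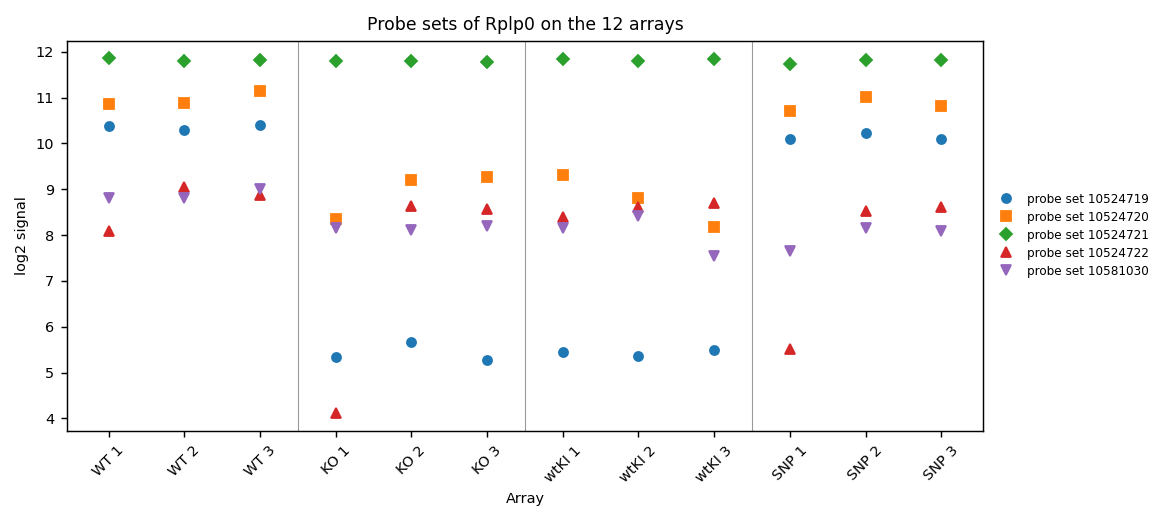
Log2 signal (vertical axis) of the 5 probe sets of Rplp0 on each array (horizontal axis), grouped by genotype. Probe set 10524719 is high in WT and SNP and low in KO and wtKI, in part near background, with an interaction of 9.64 that is not an exact size. Probe set 10524721 lies between 11.73 and 11.86 on all 12 arrays.

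Zdhhc2, a palmitoyltransferase that attaches fatty acids to membrane proteins, showed the reverse arrangement. It was at 5.66, 4.88 and 5.59 in WT, 7.68, 7.53 and 6.78 in KO, 6.07, 6.95 and 6.62 in wtKI, and 4.99, 3.82 and 4.53 in SNP. KO lay above WT and SNP below wtKI, with no overlap in either comparison. The interaction was -4.05 ± 0.52 (limma adjusted p = 0.0459), made of a loss effect of 1.95 ± 0.37 (adjusted p = 0.214) and a variant effect of -2.09 ± 0.37 (adjusted p = 0.324), neither of which passed by itself. On 10 arrays it was -4.15 ± 0.51 (adjusted p = 0.049). WT 2, SNP 2 and SNP 3 were near background, so the size is not exact on either set of arrays. The gene rests on 2 probe sets, with interactions of -6.10 and -2.00. With the Y-linked level as a covariate the interaction was -3.85 (adjusted p = 0.0952), with the replicate number as a block the adjusted p was 0.183, and over the alternatives it ran from 0.00631 to 0.996. The call was lost without WT 1, WT 2, WT 3, KO 1, KO 2, wtKI 2, wtKI 3, SNP 2 or SNP 3, with an adjusted p of 0.0724 to 0.237 and an interaction of -4.19 to -3.73.

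Ifitm1, an interferon-induced transmembrane protein, passed on 10 arrays and not on 12. It was at 8.40, 8.33 and 8.12 in WT, 9.53, 9.78 and 9.91 in KO, 8.69, 8.55 and 8.84 in wtKI, and 9.74, 7.63 and 7.48 in SNP. SNP 1 was above all wtKI arrays and the other 2 SNP arrays were below them. On 10 arrays Ifitm1 rose in KO by 1.56 ± 0.18 (limma adjusted p = 0.0219), its variant effect was -1.14 ± 0.18 (adjusted p = 0.221) and its interaction -2.70 ± 0.26 (adjusted p = 0.00688), against -1.87 ± 0.66 (adjusted p = 0.985) on 12 arrays. Without SNP 1 alone it was -2.59 (adjusted p = 0.0095), and without KO 1 alone -1.97 (adjusted p = 0.721). Of its 3 probe sets, 2 had an interaction below 0 on both sets of arrays, and they placed SNP 1 differently. On the brightest, 10558772, SNP 1 was at 9.74 beside 9.81 and 9.89 on the other SNP arrays, and the interaction over all 12 arrays was -2.22 ± 0.32. On 10558771 SNP 1 was at 9.45 beside 7.63 and 7.48, and on 10558770 it was at 10.06 beside 5.36 and 5.14, with an interaction of 0.25 on 10 arrays.

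**Figure D3:**
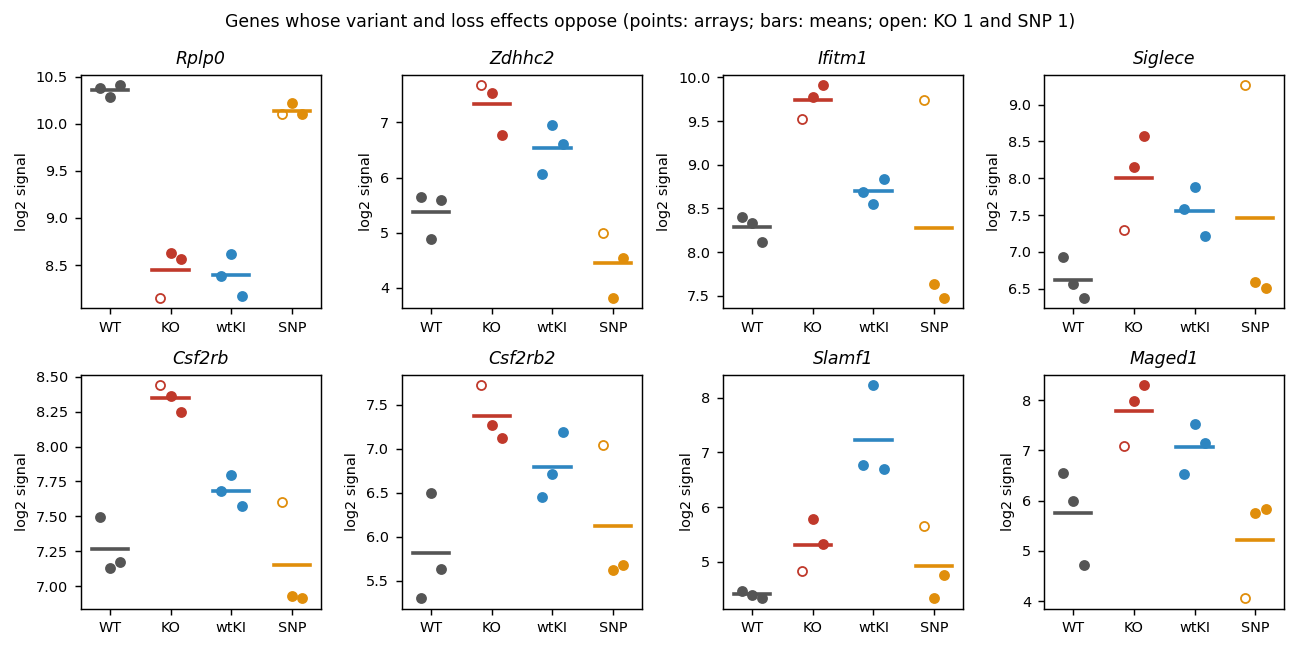
Log2 signal (vertical axis) of 8 genes whose variant and loss effects oppose, by genotype (horizontal axis); points are arrays, bars the means of 3 arrays, and open points KO 1 and SNP 1. Rplp0 is high in WT and SNP and the other 7 genes are higher in KO than in WT, with SNP 2 and SNP 3 below the wtKI arrays.

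Receptors were among the next genes on the lower side, none of which passed. Csf2rb encodes the beta chain shared by the receptors for GM-CSF, interleukin 3 and interleukin 5, and was at 7.49, 7.13 and 7.17 in WT, 8.44, 8.36 and 8.25 in KO, 7.68, 7.80 and 7.57 in wtKI, and 7.60, 6.93 and 6.92 in SNP. Its interaction was -1.62 ± 0.31 (limma adjusted p = 0.371) on 12 arrays and -1.80 ± 0.26 (adjusted p = 0.0925) on 10, with the same sign in 9 of 9 probe sets. All KO arrays were above all WT arrays, and SNP 1 alone of the SNP arrays reached the wtKI range. Csf2rb2, the neighbouring gene and a close copy that in mice serves the interleukin 3 receptor, was at 5.30, 6.49 and 5.64 in WT, 7.72, 7.27 and 7.12 in KO, 6.46, 6.71 and 7.19 in wtKI, and 7.05, 5.63 and 5.68 in SNP. Its interaction was -2.23 ± 0.58 (adjusted p = 0.617) and, on 10 arrays, -2.52 ± 0.47 (adjusted p = 0.2). The copies are near-identical in part, so signal may be shared between them. Of the 10 growth factor receptor genes listed, 0 passed on either set of arrays. At an unadjusted limma p under 0.05, 1 was higher and 2 were lower on 12 arrays, against 1.84% and 2.78% of all genes. On 10 arrays 0 were higher and 2 lower, against 3.1% and 4.02%. The median interaction was 0.03 on 12 arrays and -0.20 on 10, against 0.0078 and 0.0119 over all genes.

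Siglece, an inhibitory sialic acid receptor of myeloid cells, was at 6.93, 6.56 and 6.38 in WT, 7.30, 8.15 and 8.57 in KO, 7.58, 7.88 and 7.21 in wtKI, and 9.27, 6.59 and 6.51 in SNP. Its interaction was -2.75 ± 0.36 (limma adjusted p = 0.057) on 10 arrays and -1.49 ± 0.87 (adjusted p = 0.997) with SNP 1 and KO 1. Slamf1, the stem cell marker CD150, was near background in WT, at 4.47, 4.40 and 4.35, and at 4.83, 5.79 and 5.34 in KO, 6.77, 8.22 and 6.70 in wtKI, and 5.65, 4.34 and 4.77 in SNP. Its interaction was -3.22 ± 0.61 (adjusted p = 0.371) on 12 arrays and -3.83 ± 0.57 (adjusted p = 0.104) on 10, where SNP was near background too, so these sizes are not exact. For Slamf1 the wtKI arrays were the ones that stood above the rest.

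The promoters of 3 of these genes are shown because GFI1 binds DNA and these genes were higher in KO and lower in SNP than their controls on 10 arrays. They are the 250 bases before the RefSeq start, from the GRCm38.p6 assembly, read 5′ to 3′ on the gene's strand, with capitals marking AATC or its reverse complement GATT.
Ifitm1, chr7:140967826-140968075, plus strand: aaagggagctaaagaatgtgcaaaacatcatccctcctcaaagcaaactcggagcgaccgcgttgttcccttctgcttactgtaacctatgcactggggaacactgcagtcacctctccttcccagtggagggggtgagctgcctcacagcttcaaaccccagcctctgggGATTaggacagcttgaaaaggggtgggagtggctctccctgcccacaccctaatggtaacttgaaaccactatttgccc
Siglece, chr7:43660162-43660411, minus strand: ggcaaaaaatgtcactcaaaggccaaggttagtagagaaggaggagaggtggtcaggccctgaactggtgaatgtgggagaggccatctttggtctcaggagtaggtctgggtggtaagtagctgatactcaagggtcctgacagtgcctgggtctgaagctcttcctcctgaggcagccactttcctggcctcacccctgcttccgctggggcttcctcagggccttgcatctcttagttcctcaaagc
Csf2rb2, chr15:78305722-78305971, minus strand: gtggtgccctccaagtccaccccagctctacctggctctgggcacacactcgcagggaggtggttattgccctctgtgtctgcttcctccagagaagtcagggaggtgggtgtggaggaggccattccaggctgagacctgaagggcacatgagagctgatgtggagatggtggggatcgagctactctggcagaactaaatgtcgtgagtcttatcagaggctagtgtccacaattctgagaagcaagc
The Ifitm1 window held 1 match and the other 2 windows 0. AATC or GATT was in 69.8% of all 27025 promoters of that length, in 63.4% of the 11312 promoters of genes with a value, in 62.9% of 458 promoters of genes lower at an unadjusted p under 0.05 on 10 arrays and in 66.7% of 360 promoters of genes higher. The longer AAATCA or its reverse complement TGATTT, which contains the core, was in 12.7%, 8.28%, 8.30% and 11.7% of them. The shares among lower genes were close to those of all genes with a value, and no match says only that these letters are not in this window.

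Other genes opposed with effects at least 1 in size and no overlap, and none passed. Maged1, an adaptor of the MAGE family encoded on the X chromosome, was at 6.56, 5.99 and 4.71 in WT, 7.09, 7.98 and 8.29 in KO, 6.53, 7.53 and 7.14 in wtKI, and 4.06, 5.76 and 5.83 in SNP. Its interaction was -3.89 ± 0.80 (limma adjusted p = 0.453), with the same sign in 12 of 12 probe sets, and -3.65 ± 0.66 (adjusted p = 0.193) on 10 arrays. Clnk, an adaptor of immune receptor signalling, had an interaction of -3.24 ± 0.76 (adjusted p = 0.485). The membrane fusion protein gene Vamp5 had -2.50 ± 0.49 (adjusted p = 0.42), Tor2a -2.43 ± 0.54 (adjusted p = 0.485) and the nucleotide sugar transporter gene Slc35a2, on the X chromosome, -2.11 ± 0.44 (adjusted p = 0.453). All of these were higher in KO and lower in SNP than in their controls. In the other direction stood the extracellular superoxide dismutase gene Sod3, with 1 probe set and 2.76 ± 0.72 (adjusted p = 0.617). Each of these genes but Vamp5 was near background on some arrays, so their sizes are not exact.

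On 10 arrays Oasl2, an interferon-induced gene, and Loxl2, a lysyl oxidase, joined Sod3 and Rplp0 on the side lower in KO and higher in SNP. Oasl2 was at 5.36, 6.30 and 6.80 in WT, 6.32, 3.84 and 4.55 in KO, 5.42, 5.27 and 4.60 in wtKI, and 8.93, 6.89 and 5.82 in SNP, with an interaction of 3.21 ± 0.65 (limma adjusted p = 0.241) on 10 arrays and 3.36 ± 1.08 (adjusted p = 0.977) on 12. Loxl2 had 2.59 ± 0.48 (adjusted p = 0.195) on 10 arrays. Both genes were near background in wtKI and, on 10 arrays, in KO, so these sizes are not exact. Gfi1 itself lies on chromosome 5, and so did 3 of the 8 opposing genes on 12 arrays (37.5%: Rplp0, Sod3 and Clnk), 4 of the 14 on 10 arrays (28.6%, with Oasl2), 0 of the 18 and 0 of the 10 agreeing genes, and 881 of 14144 placed genes (6.23%). In the GRCm38.p6 gene order 21 protein-coding genes lie between Rplp0 and Oasl2, 111 between Gfi1 and Oasl2 and 133 between Gfi1 and Rplp0, while 324 lie between Gfi1 and Sod3 and 354 between Gfi1 and Clnk. These opposing genes were picked by their values, so the share is a description. The share on chromosome 5 among genes at an unadjusted interaction p under 0.05 was 5.83% on 12 arrays and 6.06% on 10, near that of all genes.

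In some genes 1 of the effects was larger than the other. Ndrg2, a gene of differentiation and stress, was at 5.58, 5.26 and 5.14 in WT, 7.71, 7.12 and 7.45 in KO, 6.11, 6.04 and 6.89 in wtKI, and 5.03, 5.91 and 5.82 in SNP, with an interaction of -2.86 ± 0.43 (limma adjusted p = 0.101) made of a loss effect of 2.10 and a variant effect of -0.76. Fzd6, a receptor for Wnt ligands, had -1.80 ± 0.31 (adjusted p = 0.206), with a loss effect of 1.44 and a variant effect of -0.36. Ctsl, a lysosomal protease, was the reverse case, with 7.93, 8.01 and 7.96 in WT, 8.45, 8.78 and 8.52 in KO, 8.12, 9.16 and 8.75 in wtKI, and 7.09, 7.28 and 7.13 in SNP, a loss effect of 0.62, a variant effect of -1.51 and an interaction of -2.13 ± 0.35 (adjusted p = 0.178). On the higher side Pde6c, a phosphodiesterase, was at 6.76, 6.90 and 6.85 in WT, 5.43, 5.51 and 5.52 in KO, 6.37, 5.73 and 6.01 in wtKI, and 6.88, 6.49 and 6.67 in SNP, with a loss effect of -1.35, a variant effect of 0.64 and an interaction of 1.99 ± 0.29 (adjusted p = 0.0858). Without wtKI 1, Pde6c and Ctsl passed, with 2.16 (adjusted p = 0.0491) and -2.41 (adjusted p = 0.0429). The next genes there were Kctd14 with 3.23 ± 0.62 (1 probe set, wtKI near background), the interferon-inducible Ifi209 with 2.09 ± 0.42 and Klhl29 with 1.28 ± 0.29. Their adjusted p was 0.371, 0.433 and 0.485. On the lower side the serpin gene Serpina3g had -2.36 ± 0.44 (adjusted p = 0.371).

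The genotype whose mean lay farthest from the mean of the other 3 was KO for 197 of the 656 genes at an unadjusted interaction p under 0.05 on 12 arrays, against 2978 of all 14201 genes (21.0%). It was SNP for 280 of the 656 (42.7%), near the share over all genes (44.5%). WT had 13.9% against 20.1% and wtKI 13.4% against 14.4%. On 10 arrays KO had 35.0% of the 1011 genes against 27.6% of all genes, SNP 41.6% against 38.4%, WT 14.0% against 19.5% and wtKI 9.30% against 14.4%. These genes were picked by the contrast, so the shares are a description.

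Genes whose effects agree were sought with the mean of the 2 effects. None passed in limma on either set of arrays (0% of 14201), with 1285 genes (9.05%) at an unadjusted p under 0.05 on 12 arrays and 1067 (7.51%) on 10. The Y-linked genes rose in both effects, with a median of 1.19 for loss and 2.62 for the variant on 12 arrays. With the Y-linked level as a covariate 608 genes were at an unadjusted limma p under 0.05 on 12 arrays and 657 on 10, and 0 passed. In the fit without the covariate the smallest adjusted p on 12 arrays was 0.215. Among the genes with that value, Cxadr, the receptor for coxsackievirus and adenovirus, was at 6.71, 6.61 and 6.50 in WT, 8.53, 7.60 and 7.88 in KO, 7.07, 7.15 and 7.09 in wtKI, and 7.86, 8.02 and 7.62 in SNP, a mean effect of 1.06 ± 0.17. All KO arrays were above all WT arrays and all SNP arrays above all wtKI arrays. The interferon-inducible GTPase gene Iigp1 was at 6.02, 6.79 and 5.97 in WT, 7.52, 7.09 and 7.03 in KO, 7.08, 7.19 and 6.83 in wtKI, and 8.59, 8.24 and 8.06 in SNP, a mean effect of 1.11 ± 0.18. Ndufs5, a subunit of respiratory complex I, was at 9.25, 8.61 and 8.84 in WT, 7.64, 7.80 and 8.21 in KO, 8.61, 8.59 and 7.91 in wtKI, and 7.19, 6.93 and 7.17 in SNP, a mean effect of -1.14 ± 0.18. Iigp1 and Ndufs5 rest on 1 probe set each.

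Among the 18 agreeing genes on 12 arrays the largest mean effect was that of Sycp1, a protein of the meiotic synaptonemal complex. It was at 7.02, 4.02 and 4.24 in WT, 2.87, 3.07 and 2.72 in KO, 9.46, 7.00 and 7.79 in wtKI, and 1.99, 4.80 and 2.56 in SNP. The loss effect was -2.21 and the variant effect -4.97, a mean effect of -3.59 ± 0.63 (limma adjusted p = 0.261). KO and SNP were near background, and so were WT 2 and WT 3, so the sizes are not exact. Of the WT arrays WT 1 alone was above background, and the loss effect rests on it. The lack of overlap between KO and WT is in part an order of values near background. Plag1, a zinc-finger activator, had a loss effect of -2.17 and a variant effect of -2.13, with values of 5.99, 6.90 and 6.93 in WT, 3.52, 5.87 and 3.90 in KO, 7.05, 8.21 and 6.44 in wtKI, and 3.69, 5.44 and 6.17 in SNP. It rests on 1 probe set. Ubd, which encodes the ubiquitin-like protein FAT10, had -1.22 and -1.19. Both interactions were near 0, at 0.04 ± 1.02 for Plag1 and 0.03 ± 0.60 for Ubd, with errors that do not show that the effects are alike. Prox2, a homeobox gene, was at 5.01, 4.79 and 5.09 in WT, 5.45, 5.83 and 6.78 in KO, 6.05, 4.15 and 5.52 in wtKI, and 6.70, 6.06 and 6.45 in SNP, a mean effect of 1.11 ± 0.32 (adjusted p = 0.55), with WT near background. Among the other genes named on the upward side, Gpr137b-ps had a mean effect of 2.43 on 12 arrays and 1.61 on 10 (WT and wtKI near background), the Schlafen family gene Slfn1 1.33 and 0.41, and the stress-induced Nupr1 1.15 and 0.67. For these 3 genes KO 1 was the highest KO array and SNP 1 the highest SNP array. On the downward side Depdc7 had a loss effect of -1.61 and a variant effect of -1.39. Map7d3, which binds microtubules, had a mean effect of -1.76 on 12 arrays and -0.93 on 10, with SNP 1 at 2.67, and the lectin gene Mgl2 -1.24 and -1.08. On 10 arrays the smallest adjusted p of the mean effect was 0.103, shared by Gas2, a protein of the cytoskeleton (1.88 ± 0.25), the leucine-rich membrane protein gene Lrig3 (1.14 ± 0.14) and the neutrophil collagenase gene Mmp8 (1.89 ± 0.25). Of these, Lrig3 and Mmp8 had a variant effect near 0 there, of 0.11 and 0.23, so that their mean effect was mostly that of the loss; Lrig3 was near background in WT. Gas2 had a loss effect of 2.28 and a variant effect of 1.49.

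**Figure D4:**
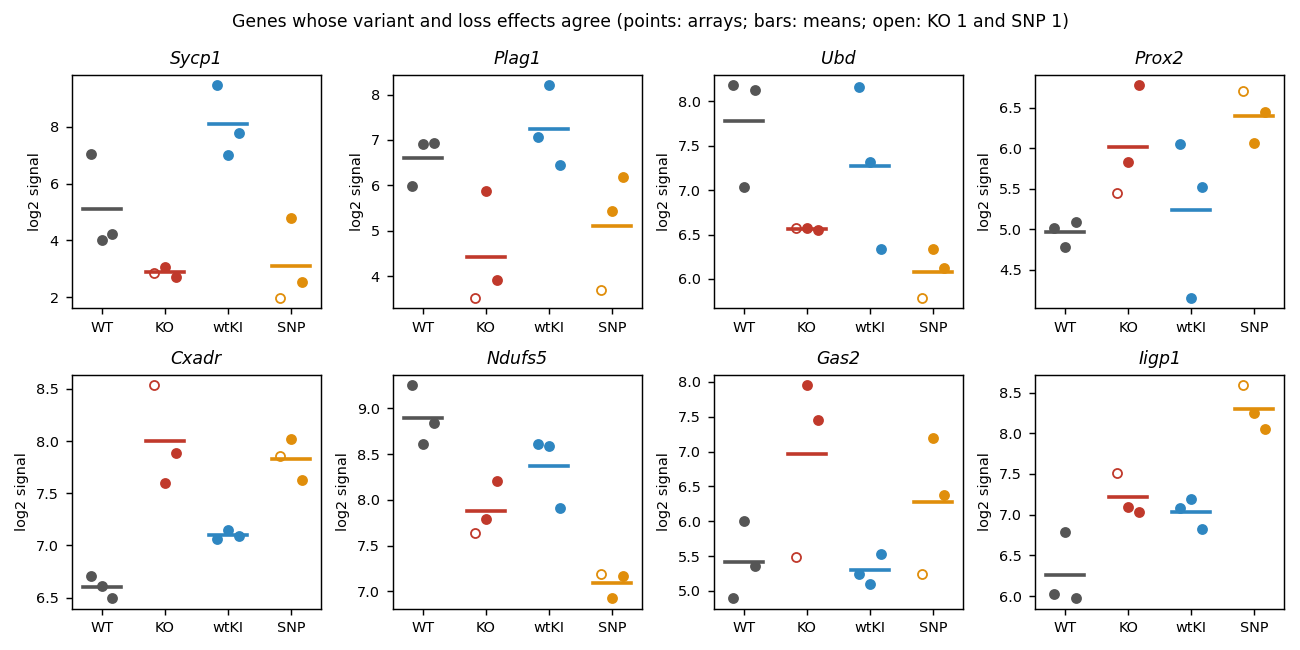
Log2 signal (vertical axis) of 8 genes whose variant and loss effects agree, by genotype (horizontal axis); points are arrays, bars the means of 3 arrays, and open points KO 1 and SNP 1. Sycp1 and Ndufs5 are lower in KO and SNP than in their controls, and Cxadr and Iigp1 are higher, with mean effects from -3.59 to 1.11.

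Single arrays decided some of these results. Ifi202b, an interferon-inducible gene, was at 7.10, 2.19 and 1.94 in WT, 2.25, 1.84 and 3.23 in KO, 8.17, 8.89 and 8.08 in wtKI, and 2.67, 2.10 and 2.02 in SNP. WT 1 was with the wtKI arrays and the other 2 WT arrays were with KO and SNP. It did not pass on 12 arrays; without WT 1 its interaction was -6.49 (limma adjusted p = 0.00173) and its mean effect -2.87 (adjusted p = 0.0101), not exact sizes, since KO and SNP were near background. Rp1, a gene of photoreceptors, was at 4.10, 4.24 and 4.32 in WT, 6.00, 5.83 and 5.59 in KO, 5.44, 5.17 and 5.26 in wtKI, and 7.17, 5.45 and 6.87 in SNP, a mean effect of 1.40 ± 0.26 (adjusted p = 0.294). Without SNP 2, the SNP array nearest to wtKI, it was 1.66 (adjusted p = 0.00408), and WT and wtKI were near background. Rp1 rests on 1 probe set.

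The granule proteins of late neutrophils divided. Of 18 measured genes of this list 15 had an interaction above 0 on 12 arrays and 13 on 10, with a median of 1.83 and of 0.44. Over all genes 50.7% were above 0 on 12 arrays and 51.4% on 10. In the list 0 passed. At an unadjusted limma p under 0.05 there were 5 higher and 1 lower on 12 arrays and 7 higher and 2 lower on 10. The shares of all genes were 1.84% and 2.78% on 12 arrays and 3.1% and 4.02% on 10. Ngp, a granule protein of the cathelicidin family, was at 8.09, 6.28 and 9.20 in WT, 6.23, 4.13 and 3.51 in KO, 7.50, 8.07 and 6.14 in wtKI, and 11.25, 7.19 and 7.38 in SNP. Its interaction was 4.60 ± 1.57 on 12 arrays and 4.08 ± 1.06 on 10 (limma adjusted p = 0.984 and 0.444). Lactoferrin, Ltf, was at 7.29, 6.24 and 8.41 in WT, 5.18, 3.97 and 4.31 in KO, 7.06, 6.94 and 6.78 in wtKI, and 11.45, 6.53 and 6.91 in SNP, with an interaction of 4.20 ± 1.47 and, on 10 arrays, 2.97 ± 0.68 (adjusted p = 0.355). For both genes KO was below WT on every array, and the SNP arrays other than SNP 1 lay in or near the wtKI range. On 10 arrays the loss effect was -4.03 for Ngp and -3.18 for Ltf, and the variant effect 0.05 and -0.21. Both remaining KO arrays were near background for these genes, so their loss effects and interactions there are not exact. The calprotectin subunit gene S100a9 had a loss effect of -2.68 and a variant effect of 0.50 there, an interaction of 3.18 ± 0.71 (adjusted p = 0.343).

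Mmp8 went the other way from its list. It was at 6.49, 7.11 and 7.01 in WT, 10.32, 10.35 and 10.48 in KO, 8.87, 8.17 and 7.57 in wtKI, and 11.34, 8.75 and 8.12 in SNP. On 10 arrays it rose in KO by 3.54 (limma adjusted p = 0.0117), its variant effect was 0.23 and its interaction -3.31 ± 0.51 (adjusted p = 0.112). On 12 arrays the loss effect was 3.51 (adjusted p = 0.214), the variant effect 1.20 and the interaction -2.31 ± 0.92 (adjusted p = 0.997). All KO arrays were above all WT arrays, while SNP 2 and SNP 3 lay within the wtKI range.

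Mast cell, basophil and eosinophil genes leaned to the opposite side. Of 13 measured, 11 had an interaction below 0 on both sets of arrays, with a median of -0.97 on 12 arrays and -0.85 on 10. Over all genes 50.7% were above 0 on 12 arrays and 51.4% on 10. The 2 effects had opposite signs for 10 of 13 on 12 arrays and 11 of 13 on 10, against 40.6% and 49.6% of all genes, and 10 of these were higher in KO and lower in SNP than their controls on both sets. None passed. At an unadjusted limma p under 0.05, 4 were lower on 12 arrays and 2 on 10, against 2.78% and 4.02% of all genes. Fcer1a, the IgE-binding chain of the high-affinity IgE receptor, was at 3.08, 5.96 and 6.59 in WT, 8.41, 7.88 and 8.46 in KO, 4.99, 5.33 and 6.21 in wtKI, and 6.18, 3.16 and 5.33 in SNP, with an interaction of -3.66 ± 1.24 (limma adjusted p = 0.984). The KO arrays were above all other arrays. Fcer1a was near background on WT 1, wtKI 1, wtKI 2, SNP 2 and SNP 3, so the size of its interaction is not exact. Hdc, which makes histamine, was at 6.82, 8.27 and 8.02 in WT, 9.34, 9.53 and 9.54 in KO, 8.81, 8.88 and 8.98 in wtKI, and 9.23, 8.56 and 7.89 in SNP, with -2.09 ± 0.54 (adjusted p = 0.617) and, on 10 arrays, -2.49 ± 0.54 (adjusted p = 0.306). The mean level of the list was 7.70 to 8.07 on the KO arrays and 6.73 to 7.86 on the other 9, where the highest was wtKI 3. Whether more such cells or more of their RNA per cell were in the KO sorts cannot be told apart here.

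Stem cell and Hoxa genes leaned the same way as the mast cell genes, while 50.7% of all genes were above 0 on 12 arrays and 51.4% on 10. The lists overlap: Gata2 is in the mast cell and the stem cell list, and Flt3, Mecom, Meis1 and Sox4 are in the stem cell and the Hoxa list. Of 15 stem and early progenitor genes, 14 had an interaction below 0 on 12 arrays and 12 on 10 (median -0.62 and -0.48). In this list 0 passed. At an unadjusted limma p under 0.05, 3 were lower on 12 arrays and 2 on 10, against 2.78% and 4.02% of all genes. Of 10 genes of the Hoxa and Meis1 programme, which marks leukaemias with stem-like features, 9 were below 0 on both sets (median -0.69 and -0.38). Here 0 passed, and 2 were lower at that unadjusted p on each set, against the same shares of all genes. On 12 arrays Meis1 is among the lower genes counted in both lists. Meis1, a cofactor of Hoxa9, had -1.61 ± 0.61 and -1.28 ± 0.65. Hoxa9 was at 8.80, 8.49 and 9.12 in WT, 9.38, 9.53 and 9.63 in KO, 9.20, 8.92 and 9.03 in wtKI, and 5.55, 8.78 and 9.34 in SNP. Its interaction was -1.87 ± 1.02 on 12 arrays and -0.77 ± 0.34 (limma adjusted p = 0.698) on 10, and the lower value rests on SNP 1. The mean level of the Hoxa and Meis1 list was 6.78 on SNP 1 and 7.47 to 8.17 on the others. It was highest on the wtKI arrays, at 8.07, 8.17 and 8.07, with KO 3 next at 8.05. That of the stem cell list was 7.77 on wtKI 2 and 7.91 on wtKI 3, the Y-negative wtKI arrays, and 6.71 to 7.45 on the others. The part of these control arrays in the medians was not tested.

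Among 14 reported GFI1 targets, 7 had an interaction above 0 on 12 arrays and 6 on 10, the median was 0.01 and -0.24, and 0 passed. At an unadjusted limma p under 0.05, 1 was lower on 12 arrays and 2 on 10, against 2.78% and 4.02% of all genes. At that p 0 were higher, against 1.84% and 3.1% of all genes. The effects had opposite signs for 6 of 14 and 7 of 14, near the shares over all genes. On 12 arrays the largest interaction of the list in size was that of Il7r, at 2.63 (limma adjusted p = 0.997), and on 10 arrays Il7r had 1.25 (adjusted p = 0.706). The immediate-early factor gene Egr1 had -1.24 ± 0.78 and, on 10 arrays, -1.93 ± 0.76. The growth factor gene Csf1 had -0.87 ± 0.76 and -1.27 ± 0.84. Irf8, which drives monocyte fate, was at 8.80, 8.32 and 9.12 in WT, 7.68, 7.90 and 8.11 in KO, 8.30, 8.23 and 8.80 in wtKI, and 7.79, 8.12 and 8.32 in SNP, with 0.48 ± 0.37 (limma adjusted p = 0.997). All KO arrays were below all WT arrays for Irf8. Gfi1b, the close relative of Gfi1, had -0.84 ± 0.45 and, on 10 arrays, -0.48 ± 0.26. The 11 measured corepressor genes had a median of -0.30 and 0.01, and 0 passed.

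Of 14 monocyte and macrophage genes 10 had an interaction above 0 on 12 arrays and 9 on 10 (median 0.29 and 0.39). Over all genes 50.7% were above 0 on 12 arrays and 51.4% on 10. In the list 0 passed and 2 were higher at an unadjusted limma p under 0.05 on each set, against 1.84% and 3.1% of all genes. Ly86, a partner of a Toll-like receptor homologue, was at 8.16, 8.66 and 8.27 in WT, 6.92, 6.42 and 7.73 in KO, 7.89, 6.97 and 6.83 in wtKI, and 7.86, 8.18 and 7.68 in SNP, with 2.01 ± 0.50 (limma adjusted p = 0.553) and 1.99 ± 0.58 (adjusted p = 0.486). All its KO arrays were below all WT arrays. The transglutaminase gene F13a1 had 1.31 ± 0.50 and 1.39 ± 0.57, and Adgre1 had 1.45 and 0.52. Below 0 were 4 genes of the list on 12 arrays and 5 on 10. The largest of these in size was Cd14, with -1.09 on 12 arrays and -1.73 on 10 (limma adjusted p = 0.997 and 0.719).

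Several lists changed with the arrays that stood apart. The median interaction of 15 erythroid genes was 0.74 on 12 arrays and 0.08 on 10, that of 13 B-lineage genes 0.88 and 0.31, that of 19 interferon-stimulated genes 0.43 and -0.06, and that of 19 ribosome biogenesis genes -0.26 and 0.03. On SNP 1 ribosome biogenesis was at 7.58, against 8.52 to 9.15 on the other arrays, and the interferon-stimulated genes were at 7.55, against 6.24 to 6.88. The inflammatory cytokine list was also set apart there, at 8.48 against 6.45 to 7.17, and its median was 0.62 and 0.50. The 24 cell cycle genes had a median of 0.04 and -0.08, and the 9 primary granule genes of -0.25 and -0.06. None of the members of these lists passed on either set of arrays.

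**Figure D5:**
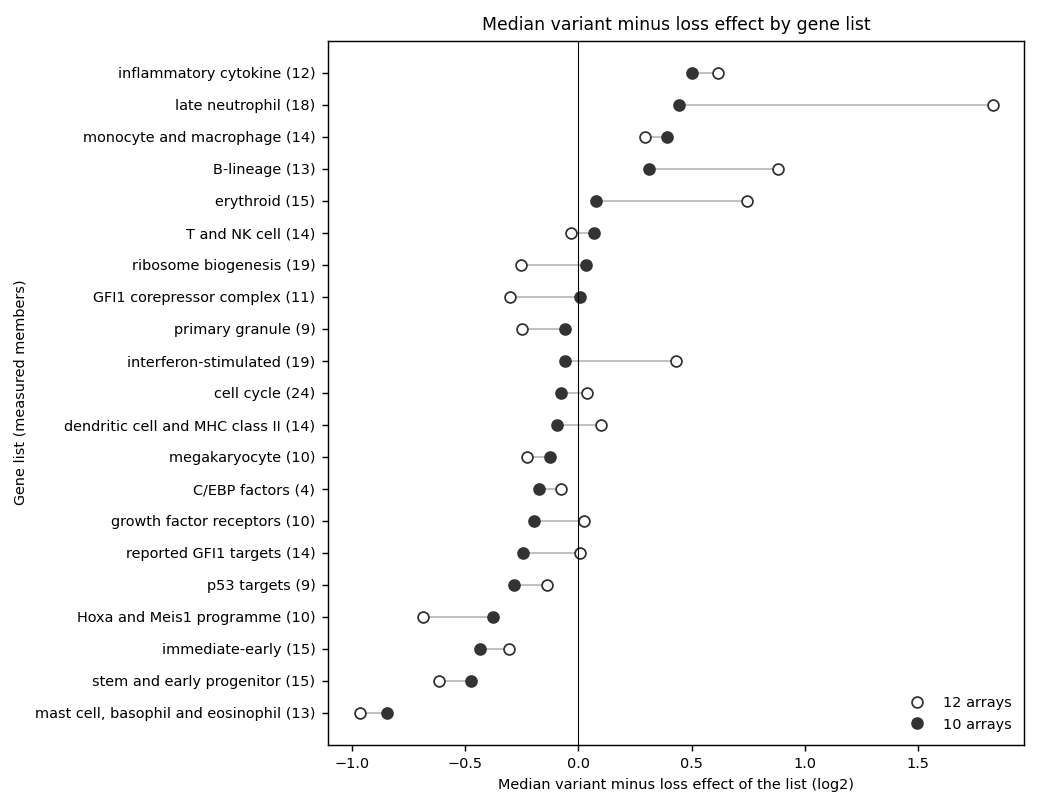
Median variant minus loss effect (horizontal axis, log2) of each gene list (vertical axis, measured members in brackets), on 12 arrays (open points) and on 10 arrays (filled points). The late neutrophil median goes from 1.83 to 0.44 and the erythroid median from 0.74 to 0.08, while the mast cell, basophil and eosinophil median stays at -0.97 and -0.85.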

How the data were processed

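The deposited table holds log2 signals; the submitters' processing notes say that the authors used RMA and name no settings. It has 105661 probe sets, each reaching at least 6.14 on some array. The platform annotation gives 98975 of them a single symbol, 1703 several symbols and 4983 no symbol. A gene's value was the median of its 1-symbol probe sets (14201 genes, median 5 probe sets, 2874 genes with 1); 14168 symbols matched the RefSeq table of GRCm38.p6, and 1752 were updated. Their number limits the precision of arrays.

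The contrasts of the 4 groups were fitted by lmFit and eBayes of limma 3.58.1 (R 4.3.3) over 12 arrays, with Benjamini-Hochberg adjustment over all genes and a threshold of 0.05. The script was tested on simulated data. The main fit did not pair samples by replicate number, and whether the numbers pair them was not settled.

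Genes named were: the genes past the threshold or the 5 with the smallest p per direction, for the interaction and the mean effect; up to 6 opposing and agreeing genes per direction (5 on 10 arrays); Gfi1, Gfi1b, Hoxa9, Meis1, Csf1 and Irf8; and up to 3 members of each list with the largest interaction. Genes without a proper name, receptors of smell and small RNAs were counted only. Other genes were chosen after their values were seen. The comparison and the lists were chosen with earlier results of these data known.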

Additional observations from a re-analysis of the deposited data

Results flagged for a closer look

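For 3 genes a test of the difference between the variant effect and the loss effect passed on 12 or on 10 arrays. Each of these calls depended on the processing or on single arrays. Rplp0 had a variant minus loss effect of 3.66 on 12 arrays (limma adjusted p = 0.000376), with KO and wtKI low and WT and SNP high. With median polish it was 1.59 (adjusted p = 0.987) and with the probe set of highest mean -0.0029. Zdhhc2 had -4.05 on 12 arrays (adjusted p = 0.0459), with KO and wtKI high and with WT 2, SNP 2 and SNP 3 near background. Its call stayed without KO 3, wtKI 1 or SNP 1 and was lost without any other 1 array. Ifitm1 had -2.7 on 10 arrays (adjusted p = 0.00688), with KO high and SNP 2 and SNP 3 low, and -1.87 on 12 arrays (adjusted p = 0.985). With 3 arrays per group, none of the groups is large enough for a test of single outlying arrays.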

How the results depend on the processing

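The causes of the changes were not tested. For the variant minus loss effect, 2 genes passed on 12 arrays, 0 with median polish or with the probe set of highest mean, 1 with each probe set by itself, with genes of at least 3 probe sets, without the dimmest 30% of genes, with quantile normalization repeated, with a trend and robust prior, with the replicate number as a block and with the Y-linked level as a covariate, 9 with array weights (Csf2rb, Ndrg2, Pde6c and Slamf1 among them), 3 on 10 arrays, and 1 to 4 without 1 array. For the mean of the 2 effects 0 passed, 13 with array weights and 0 to 1 without 1 array. For the loss effect 1 passed, 0 with median polish, the probe set of highest mean, the replicate block or the Y-linked covariate, 3 with the mean of probe sets, each probe set by itself or quantile normalization repeated, 140 with array weights, 9 on 10 arrays and 0 to 9 without 1 array. For the variant effect 1 passed, 0 with median polish, the mean of probe sets, the probe set of highest mean, the replicate block or the Y-linked covariate, 3 with each probe set by itself and 0 to 2 without 1 array. Array weights gave KO 1 a weight of 0.248, SNP 1 0.201 and KO 2 4.54.

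The interaction of Rplp0 was -0.0029 with the probe set of highest mean. The correlation of the effects across genes was 0.102 with array weights and -0.0117 to 0.292 without 1 array (lowest without KO 1). Of 133 named genes, 7 changed the sign of the interaction on 10 arrays and 13 with the probe set of highest mean. The Y-linked covariate on 10 arrays, 2 choices changed together and added after seeing the data, left 2 interactions past the threshold, Rplp0 and Ifitm1. Same-numbered samples correlated between -0.172 and 0.341 in their deviations, 3 of 18 pairs above 0.1. Those 3 were the same-numbered KO and SNP pairs (0.341, 0.191 and 0.139). Of the other pairs 4 of 36 were above 0.1, up to 0.288. Since KO 1 and SNP 1 stand apart, these values cannot decide whether the numbers pair the samples. Under the replicate block Rplp0 kept its interaction call (3.66, limma adjusted p = 0.00324). It lost its loss and variant calls (0.0507 and 0.109), and Zdhhc2 lost its call (0.183).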
